A study of Mus musculus with 24 samples.

Results

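Aminoacyl-tRNA synthetases attach each amino acid to its transfer RNA, and their transcripts were followed here in the left ventricle of young mice with a cardiomyocyte deletion of Rhot1 and Rhot2 (DKO) and of their controls. The members were the protein-coding genes of the count table whose symbols name a synthetase, 38 of 39396 genes in all. A symbol ending in 2 placed 17 of them in the mitochondrial set, and the other 21 formed the cytosolic set, in which Tarsl2, a cytosolic relative of the threonyl enzyme Tars, was kept. All 38 passed the filter on low counts, and the lowest count of any member in any library was 158.

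Cells keep a pair of synthetase sets. The cytosolic enzymes serve the proteins made from nuclear genes, and several of them are built into a multisynthetase complex on scaffold proteins. The mitochondrial enzymes are also encoded in the nucleus, are imported, and serve the few proteins made inside the organelle, most of them subunits of the respiratory chain. Glycine and lysine are exceptions, since Gars and Kars each supply both compartments from a single gene, and mitochondria make their glutaminyl-tRNA through the glutamyl enzyme Ears2 and an amidotransferase. In mammalian cells many cytosolic synthetase genes are known targets of ATF4, the transcription factor of the integrated stress response, which also drives amino acid synthesis and uptake.

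RNA was sequenced from 6 DKO and 6 control left ventricles labelled day 1 and from 6 DKO and 6 control left ventricles labelled day 7. The DKO mice carried an embryonic deletion of Rhot1 and Rhot2, the genes of the RHOT (Miro) proteins that tether mitochondria to motor proteins, restricted to cardiomyocytes. Neither the Cre driver nor the strain, nor the genotype of the controls beyond that name, was given in the sources used here, and the labels do not tie each library to its own animal, so p-values speak of the spread among libraries, which may be technical. Total counts per library were 30318018 to 45806171 at labelled day 1 and 17334498 to 30453874 at labelled day 7. Levels are CPM (counts scaled to a common library size) after scaling by the trimmed mean of M values (TMM), as mean ± SD or as the lowest, median and highest of 6 libraries. A gene was called at a Benjamini-Hochberg adjusted p below 0.05 over all genes tested, from edgeR's robust quasi-likelihood F-test, and fold changes are log2 of DKO over control with their standard error (SE).

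Some facts of the libraries bear on what follows. Rhot1 averaged 119 ± 9.89 CPM in DKO and 158 ± 16.6 CPM in control libraries labelled day 1, and 132 ± 10.8 CPM in DKO and 155 ± 7.41 CPM in control libraries labelled day 7 (SD, n = 6 each). Rhot2 had no counts in any library, controls included, so the counts do not speak to its deletion or its expression. Cells other than cardiomyocytes were included, since 6 fibroblast markers summed to 5157.6 to 6172.3 CPM in DKO and 4810.6 to 6116.7 CPM in controls at labelled day 1, against 43212 to 47189.9 CPM in DKO and 43997.5 to 54398.1 CPM in controls for 6 cardiomyocyte markers. The 5 genes Igf2, H19, Dlk1, Tnni1 and Myh7, which fall after birth in mouse heart, summed to 10256 to 18737.6 CPM in controls labelled day 7 and 3043.4 to 4601.3 CPM in controls labelled day 1. The labelled ages therefore ran against these markers, and ages are given as labelled. All 12 libraries labelled day 1 held Y-linked transcripts, as did 4 of 12 labelled day 7, DKO m1124 and m1128 and controls m1091 and m1101.

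In DKO hearts labelled day 1, cytosolic synthetases were raised as a broad group, while a single mitochondrial one rose. Of 21 cytosolic members, 13 rose in DKO and 0 fell, whereas 9.81% of all 17352 genes tested rose and 7.79% fell. The median log2 fold change of the cytosolic set was 0.37, against −0.02 over all genes. Of 17 mitochondrial members, 1 rose and 0 fell, with a median of 0.04. The members were counted without a test of the set. In bulk tissue, a change in the number of cells of a type cannot be told apart from a change in RNA per cell. Of 6 cardiomyocyte markers, 3 fell in DKO at labelled day 1, the calcium release channel Ryr2 (−0.61 ± 0.12) and the sarcomere genes Tnnt2 (−0.35 ± 0.08) and Ttn (−0.27 ± 0.05), and 0 rose. At labelled day 7, 0 of the 6 were called, with Ryr2 at −0.49 ± 0.11 (edgeR adjusted p = 0.0598). Their part in the synthetase result was not tested.

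Far fewer genes differed between the genotypes at labelled day 7, and the cytosolic synthetases were still among them. Of 21 cytosolic members, 11 rose and 0 fell, whereas 0.686% of the genes tested rose and 0.334% fell. These 11 stood among 119 genes called higher in all. The median log2 fold change was 0.51 for the cytosolic set and −0.01 over all genes. Of 17 mitochondrial members, 0 were called in either direction by edgeR, DESeq2 or limma-voom, with a median of −0.02, and at an unadjusted p below 0.05 the edgeR count was 0 higher and 1 lower (Fars2). All 11 members called at labelled day 7 were also called at labelled day 1.

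**Figure D1:**
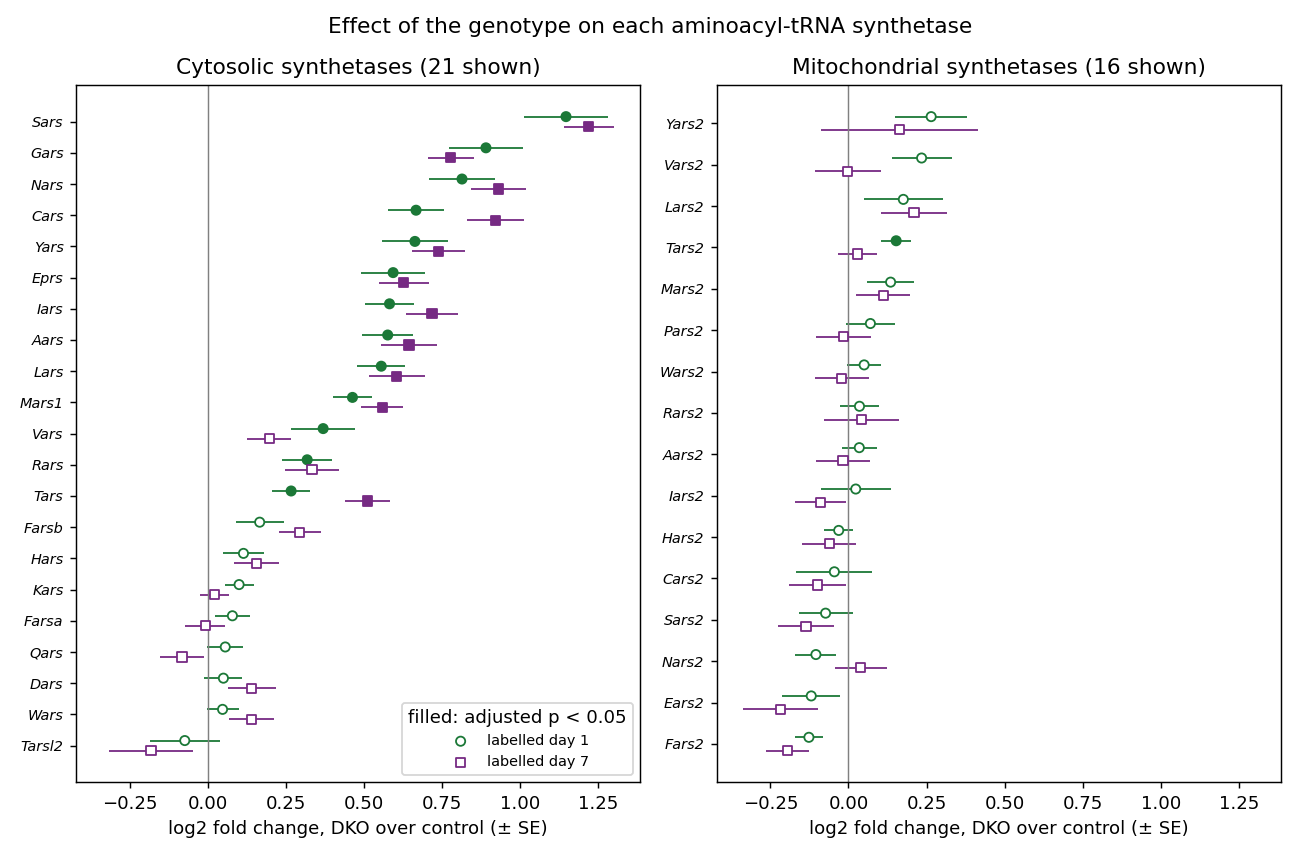
Log2 fold change of DKO over control (horizontal axis, ± SE) for each of the 21 cytosolic synthetases (left) and 16 of the 17 mitochondrial synthetases (right), at labelled day 1 (circles) and labelled day 7 (squares), with filled symbols for adjusted p below 0.05. Filled symbols run from Sars down to Tars on the left, except for Vars and Rars at labelled day 7, and Tars2 at labelled day 1 is the only filled symbol on the right.

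Because many synthetase genes are known ATF4 targets, promoter windows were searched for the core of the C/EBP-ATF response element at which ATF4 is known to bind, TGATGNAA, on both strands (TTNCATCA when read on the other strand). RefSeq (GRCm38.p6) windows of 250 bases before to 50 bases after the start were found for 28 of 38 members, 14 cytosolic and 14 mitochondrial. The called members Cars, Lars, Nars, Rars and Vars had no window and were not searched. The core was in 5 of the 14 cytosolic windows and in 0 of the 14 mitochondrial genes. Its share was 3.97% of all 32851 windows and 4.51% of genes. The 5 genes with the core, Aars, Gars, Iars, Tars and Yars, belonged to the 8 windowed cytosolic members called in DKO. Of the 6 windowed cytosolic members not called, 0 held it. At shares this low, a count of 0 among 6 or 14 genes does not set them apart from genes at large. Sars, with the largest change, was among the 3 called members whose window did not hold these letters. The E-box core CACGTG, its own reverse complement, was in 4 cytosolic windows (Aars, Farsb, Iars and Tars) and in 1 mitochondrial gene (Ears2). The share of this core was 7.15% of all windows and 8.09% of genes, and it overlapped none of the response element matches. A match is a description of letters and does not show binding.

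Stretches from the 3 called members with the largest changes among those that held the core are shown for where the match sits, with its letters in capitals, on the strand of the gene and 5′ to 3′. Gars is on chr6:55037851-55038000, the 150 bases before the start, with the match beginning 30 bases before it. Yars is on chr4:129189895-129189924 and Iars on chr13:49682126-49682155, where the matches begin at bases 4 and 8 of the transcript.
Gars: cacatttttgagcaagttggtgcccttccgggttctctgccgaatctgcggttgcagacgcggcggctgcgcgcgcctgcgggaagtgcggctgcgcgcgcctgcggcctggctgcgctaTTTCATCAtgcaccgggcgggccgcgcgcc
Yars: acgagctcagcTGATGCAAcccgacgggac
Iars: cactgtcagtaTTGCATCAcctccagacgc

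Sars, the seryl-tRNA synthetase, which also charges the selenocysteine tRNA, showed the largest change of any member at both labelled ages. Its lowest, median and highest levels at labelled day 1 were 96.6, 149 and 192 CPM in DKO libraries and 61.9, 68.5 and 71.6 CPM in control libraries. This gave a log2 fold change of 1.15 ± 0.13 (SE; edgeR, adjusted p = 4.2e-05), and no DKO library lay within the control range. At labelled day 7 the levels were 127, 148 and 166 CPM in DKO libraries and 56.4, 62.8 and 69.1 CPM in control libraries, a log2 fold change of 1.22 ± 0.08 (adjusted p = 2.6e-07). Here too the groups were apart.

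Nars, the asparaginyl enzyme, had 136, 181 and 234 CPM in DKO libraries labelled day 1 as lowest, median and highest, against 102, 107 and 109 CPM in controls, a log2 fold change of 0.81 ± 0.11 (edgeR adjusted p = 8.5e-05). Its control libraries were tightly bunched and every DKO library lay above them. The levels at labelled day 7 were 186, 211 and 275 CPM in DKO and 108, 115 and 126 CPM in controls (0.93 ± 0.09, adjusted p = 1.8e-05), again without overlap. Asparagine is the amino acid made by Asns, itself an ATF4 target, which averaged 102 ± 42.2 CPM in DKO and 7.39 ± 1.09 CPM in controls at labelled day 1, and 143 ± 21 CPM in DKO and 12.9 ± 2.78 CPM in controls at labelled day 7.

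Cars, the cysteinyl enzyme, had 53.4, 66 and 79.9 CPM in DKO libraries labelled day 1 and 38.7, 42.7 and 46.1 CPM in controls (log2 fold change 0.67 ± 0.09, edgeR adjusted p = 9.3e-05). Levels at labelled day 7 were 63.9, 73.9 and 88.4 CPM in DKO and 33.8, 38.8 and 46.6 CPM in controls (0.92 ± 0.09, adjusted p = 2.9e-05). The groups did not overlap at either labelled age.

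Gars, whose promoter stretch is shown above and which supplies glycyl-tRNA synthetase to the cytosol and to mitochondria, had 146, 191 and 265 CPM in DKO libraries labelled day 1 and 101, 105 and 123 CPM in controls (0.89 ± 0.12, edgeR adjusted p = 0.00011). Libraries labelled day 7 had 247, 293 and 339 CPM in DKO and 155, 170 and 186 CPM in controls (0.78 ± 0.07, adjusted p = 2e-05). Every DKO library was above every control. Kars, the other gene that supplies both compartments, averaged 137 ± 5.3 CPM in DKO and 127 ± 5.28 CPM in controls at labelled day 1, and 147 ± 4.36 CPM in DKO and 144 ± 3.41 CPM in controls at labelled day 7. It was not called (0.10 ± 0.05, edgeR adjusted p = 0.16, and 0.02 ± 0.05, adjusted p = 0.88), and the difference between Gars and Kars was not tested.

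Yars, the tyrosyl enzyme, and Iars, the isoleucyl enzyme, both with the response element core at the start of their transcript, gave middle-sized rises. Yars had 59, 80.8 and 98.5 CPM in DKO and 47.3, 50 and 56.5 CPM in controls at labelled day 1, and 72.7, 87.5 and 102 CPM in DKO and 45, 52.5 and 57.6 CPM in controls at labelled day 7. Iars had 94.8, 107 and 137 CPM in DKO and 70.6, 75.5 and 80 CPM in controls at labelled day 1, and 127, 153 and 174 CPM in DKO and 85.1, 88 and 108 CPM in controls at labelled day 7. Neither gene's groups overlapped. The log2 fold changes were 0.66 ± 0.10 and 0.74 ± 0.08 for Yars and 0.58 ± 0.08 and 0.72 ± 0.08 for Iars, at labelled day 1 and day 7, with edgeR adjusted p-values of 0.0004 or lower.

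Aars, the alanyl enzyme, and Eprs, which joins the glutamyl and prolyl enzymes in 1 protein chain, were likewise higher in DKO hearts. Aars had 98.3, 117 and 148 CPM in DKO and 75.2, 79.7 and 86.2 CPM in controls at labelled day 1, and 124, 168 and 194 CPM in DKO and 93.5, 106 and 115 CPM in controls at labelled day 7. Eprs had 173, 225 and 283 CPM in DKO and 143, 150 and 159 CPM in controls at labelled day 1, and 237, 278 and 316 CPM in DKO and 151, 178 and 202 CPM in controls at labelled day 7. Both genes were apart between genotypes at both labelled ages. Their log2 fold changes were 0.58 ± 0.08 and 0.64 ± 0.09 for Aars and 0.59 ± 0.10 and 0.63 ± 0.08 for Eprs.

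The remaining called members were Lars (leucyl, 0.56 ± 0.08 at labelled day 1 and 0.60 ± 0.09 at labelled day 7), Mars1 (methionyl, 0.46 ± 0.06 and 0.56 ± 0.07) and Tars (threonyl, 0.27 ± 0.06 and 0.51 ± 0.07). A pair was called at labelled day 1 only. Rars, the arginyl enzyme, gave 0.32 ± 0.08 (edgeR adjusted p = 0.011) at labelled day 1 and 0.33 ± 0.09 (adjusted p = 0.088) at labelled day 7, and Vars, the valyl enzyme, gave 0.37 ± 0.10 (adjusted p = 0.020) and 0.20 ± 0.07 (adjusted p = 0.22). With the level of the atrial gene Myl7 as a covariate, the call of Vars at labelled day 1 was lost. Every DKO library lay above every control library for 11 cytosolic members at labelled day 1 (6.3% of all genes) and for 12 at labelled day 7 (1.11% of all genes), the additional one being Farsb, the beta subunit of the phenylalanyl enzyme (0.29 ± 0.07, adjusted p = 0.051).

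The 8 cytosolic members called at neither labelled age were Dars, Farsa, Farsb, Hars, Kars, Qars, Tarsl2 and Wars. Their log2 fold changes ran between −0.07 for Tarsl2 and 0.17 for Farsb at labelled day 1, and at labelled day 7 between −0.18 for Tarsl2 and 0.29 for Farsb. The phenylalanyl enzyme is built from the products of Farsa and Farsb, and Farsa gave 0.08 ± 0.06 and −0.01 ± 0.06. Uncalled members were therefore not restricted to weakly expressed genes, since per kilobase of the longest coding transcript Kars averaged 62.4 and Dars 46.9 CPM per kilobase in DKO libraries labelled day 1, above Sars at 42.

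**Figure D2:**
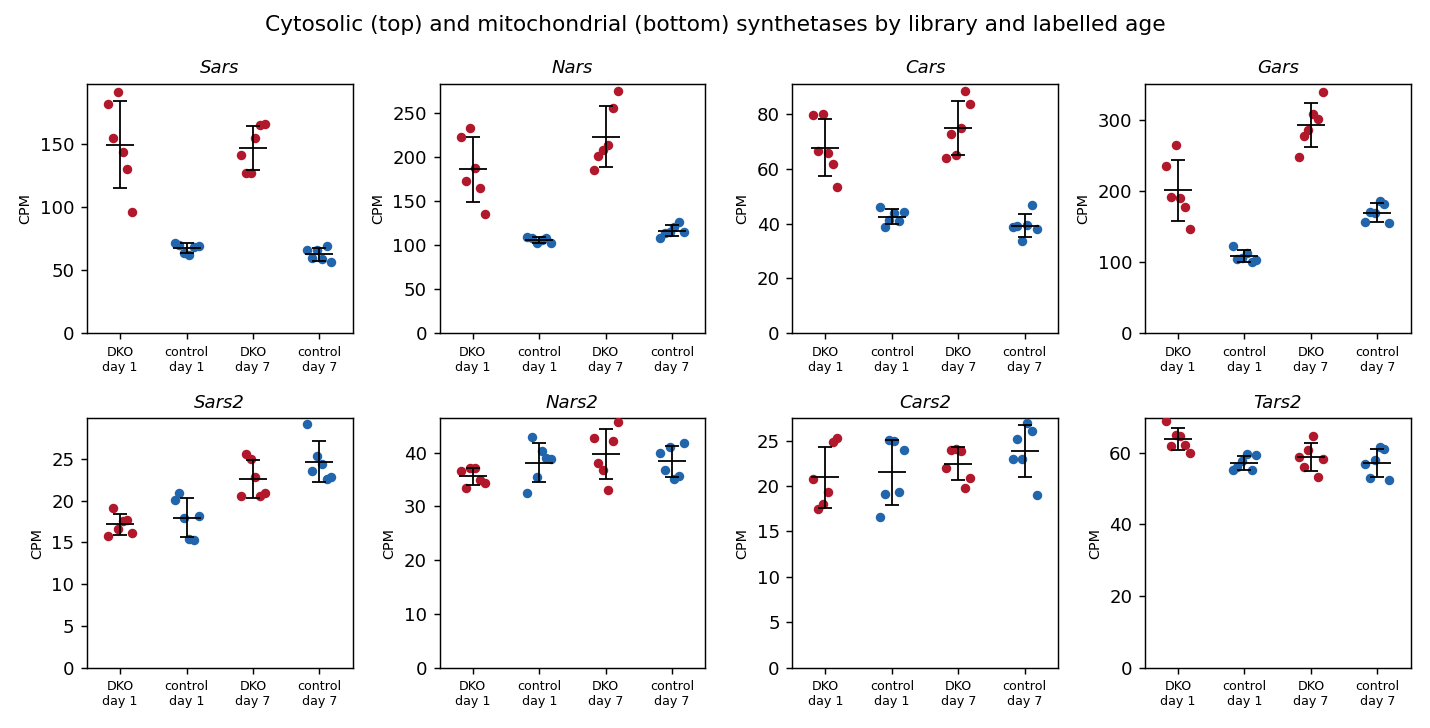
CPM in each library (points) with mean ± SD (black) for 4 cytosolic synthetases (top row) and 4 mitochondrial synthetases (bottom row), in DKO (red) and control (blue) libraries of each labelled age. DKO points lie above all control points of the same labelled age in each panel of the top row, and overlap them in the bottom row except for Tars2 at labelled day 1.

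Sars2, Nars2 and Cars2, which charge the same amino acids inside mitochondria, were not called at either labelled age. Sars2 had 15.8, 17.1 and 19.2 CPM in DKO and 15.3, 18.1 and 20.9 CPM in controls at labelled day 1, and 20.6, 21.9 and 25.6 CPM in DKO and 22.6, 24 and 29.2 CPM in controls at labelled day 7 (log2 fold changes −0.07 ± 0.09 and −0.14 ± 0.09). Nars2 had 33.4, 35.8 and 37.2 CPM in DKO and 32.5, 38.9 and 42.9 CPM in controls at labelled day 1, and 33, 40.1 and 45.7 CPM in DKO and 35.1, 38.4 and 41.7 CPM in controls at labelled day 7 (−0.10 ± 0.07 and 0.04 ± 0.08). Cars2 had 17.5, 20 and 25.2 CPM in DKO and 16.6, 21.7 and 25.1 CPM in controls at labelled day 1, and 19.8, 22.9 and 24.1 CPM in DKO and 19, 24.1 and 26.9 CPM in controls at labelled day 7 (−0.05 ± 0.12 and −0.10 ± 0.09). All 3 overlapped between genotypes at both labelled ages.

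Tars2, the mitochondrial threonyl enzyme, was the single mitochondrial member called. It had 60, 63.4 and 68.7 CPM in DKO and 55, 56.9 and 59.6 CPM in controls at labelled day 1, a log2 fold change of 0.15 ± 0.05 (edgeR adjusted p = 0.040) that lost its call in 9 of 20 alternative analyses. At labelled day 7 its libraries overlapped (53.3, 58.5 and 64.7 CPM in DKO, 52.3, 57.4 and 61.4 CPM in controls), with 0.03 ± 0.06 (adjusted p = 0.88). The other mitochondrial members lay between −0.13 (Fars2) and 0.26 (Yars2) at labelled day 1, and between −0.22 (Ears2) and 0.21 (Lars2) at labelled day 7.

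Set side by side, 19 cytosolic and mitochondrial pairs for the same amino acid could be formed, with Eprs, Fars2 and Tars2 each used in 2 pairs. The log2 ratio of the cytosolic to the mitochondrial transcript, per length, was higher in DKO than in controls in 17 pairs at labelled day 1 and in 18 at labelled day 7. The median difference of the ratio was 0.33 at labelled day 1 and 0.48 at labelled day 7. It was largest for the seryl pair, at 1.18 and 1.35, and lowest for Tarsl2 with Tars2, at −0.23 and −0.21. The pairs share members and libraries, so these are descriptions without a test.

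Summed over the set, the 21 cytosolic synthetases came to 1676 to 2408.1 CPM in DKO libraries and 1389.8 to 1492.5 CPM in control libraries labelled day 1. At labelled day 7 the sums were 2159.6 to 2709.6 CPM in DKO and 1574.5 to 1763.7 CPM in controls. The DKO and control sums were apart at both labelled ages. The mitochondrial sum was dominated by Lars2, the mitochondrial leucyl enzyme, which averaged 266 CPM per kilobase in DKO and 235 CPM per kilobase in controls at labelled day 1, while the next member, Fars2, averaged 52 CPM per kilobase in DKO and 56.5 CPM per kilobase in controls. No transcript of Lars2 matched any of the 37 transcripts of the mitochondrial genome over 50 bases at 90% identity, and the source of its high level was not tested.

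Without Lars2, the other 16 mitochondrial synthetases summed to 537.2 to 556.5 CPM in DKO and 527.7 to 561.9 CPM in controls at labelled day 1, and to 683.4 to 725.9 CPM in DKO and 698.9 to 766.6 CPM in controls at labelled day 7. These sums overlapped at both labelled ages. With Lars2 they were 1425.9 to 1735.3 CPM in DKO and 1251.8 to 1671.2 CPM in controls at labelled day 1, and 1349.1 to 1560.8 CPM in DKO and 1225.9 to 1478.1 CPM in controls at labelled day 7, also overlapping. The cytosolic sum was 3.71 ± 0.451 times the mitochondrial sum without Lars2 in DKO and 2.65 ± 0.113 times in controls at labelled day 1, and 3.41 ± 0.3 times in DKO and 2.25 ± 0.0554 times in controls at labelled day 7 (SD, n = 6 each).

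**Figure D3:**
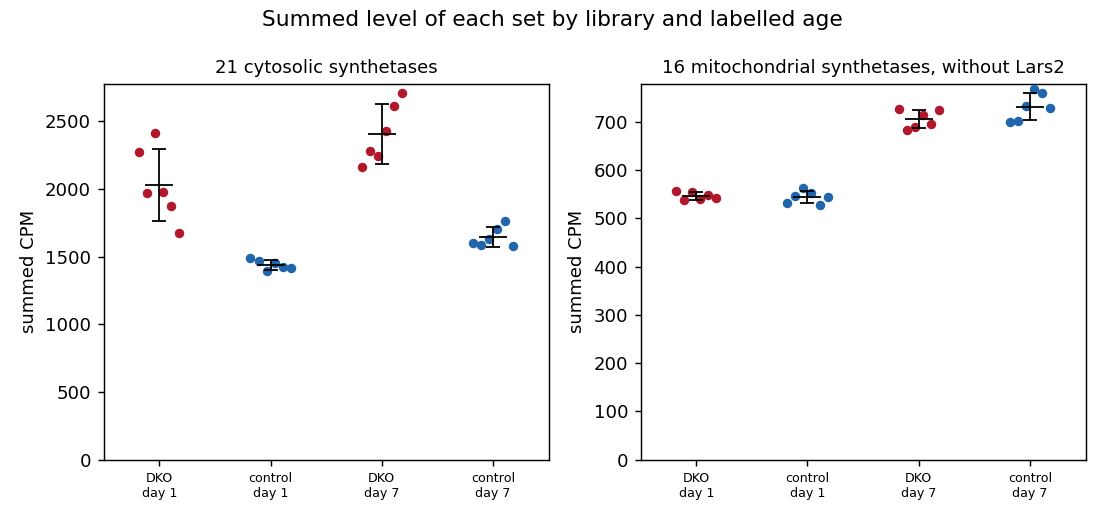
Summed CPM per library (points) with mean ± SD (black) of the 21 cytosolic synthetases (left) and of the 16 mitochondrial synthetases other than Lars2 (right), in DKO (red) and control (blue) libraries of each labelled age. The cytosolic sums of DKO libraries lie above those of all controls of the same labelled age, and the mitochondrial sums overlap.

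The DKO libraries differed among themselves in how far the called cytosolic members rose, and the same libraries were often the highest or the lowest. Among those labelled day 1, DKO 35 was the highest DKO library for 10 of the 13 called members and DKO 79 the lowest for 11. Averaged over the 13, DKO 35 lay 1.82-fold and DKO 79 lay 1.24-fold above the control mean. At labelled day 7, DKO m1128 was the highest for 9 of the 11 called members and DKO m1026 the lowest for 7, at 1.95-fold and 1.48-fold.

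Other measures also differed between these libraries. The sum of 5 atrial markers, which include the stress-responsive natriuretic peptide Nppa, was 119.8 to 837 CPM in DKO and 50.6 to 517 CPM in controls at labelled day 1, and 591.8 to 2478.3 CPM in DKO and 389.4 to 693.1 CPM in controls at labelled day 7. Its highest DKO values were in DKO 35 at labelled day 1 and in DKO m1124 and m1128 at labelled day 7. At labelled day 1 the DKO sum averaged 386.4 CPM and was mostly Nppa, at 354 CPM in DKO and 34.2 CPM in controls. Myl7 averaged 5.63 CPM in DKO and 119 CPM in controls there, Sln 0.77 and 17.8, and Myl4 25.9 and 46.2. At labelled day 7 Myl7 averaged 361.9 CPM in DKO and 145 CPM in controls. Bmp10 was at 0 in every DKO library labelled day 1, where controls averaged 0.0045 CPM. It averaged 1.37 CPM in DKO and 1.22 CPM in controls at labelled day 7. Of the 5 markers, 1 rose (Nppa) and 2 fell in DKO at labelled day 1, and 0 were called at labelled day 7. With Myl7 as a covariate at labelled day 1, 14 cytosolic members were called higher, with Farsb and Hars gained and Vars lost. Myl7 itself differed between the genotypes there (−4.41 ± 1.12, edgeR adjusted p = 0.020). That fit therefore cannot separate the level of Myl7 from the genotype, and Myl7 does not stand for Nppa. With both DKO m1124 and m1128 left out at labelled day 7, the 77 genes called in either direction again included 11 cytosolic synthetases, with Sars at 1.13 ± 0.08, and 0 mitochondrial ones. The cytosolic median log2 fold change was then 0.42, against 0.51 with all libraries. DKO m1124 and m1128 were also the only DKO libraries labelled day 7 with Y-linked transcripts, so their atrial level and that trait cannot be told apart. With Y-linked transcripts as a covariate, 12 cytosolic members were called higher. Counts on pseudogenes took 8.9 to 10.3% of each library in DKO and 7.37 to 9.04% in controls at labelled day 1. With protein-coding rows only, where pseudogene rows are left out before scaling, 13 cytosolic members were called higher and 0 lower at labelled day 1. Any other part of pseudogene counts in the result was not tested.

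The size of the DKO effect was also compared between the labelled ages. The difference (labelled day 7 minus labelled day 1) was called for 0 of 38 members by edgeR, DESeq2 and limma-voom, against 1.08% of all genes by edgeR, and 1 cytosolic member, Tars, had an unadjusted edgeR p below 0.05. For Sars the difference was 0.08 ± 0.16 (SE, edgeR adjusted p = 0.92), for Cars 0.26 ± 0.13 (adjusted p = 0.48), for Tars 0.25 ± 0.09 (adjusted p = 0.26) and for Gars −0.11 ± 0.14 (adjusted p = 0.86). Vars and Rars, called at labelled day 1 only, gave −0.17 ± 0.13 and 0.02 ± 0.12.

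Grouped by what is known of them, the members called were mostly those widely listed as ATF4 targets. Of 13 such synthetases, 12 rose at labelled day 1 and 11 at labelled day 7, and Wars, the tryptophanyl enzyme, was called at neither (0.05 ± 0.05 and 0.14 ± 0.07). Of the 8 cytosolic synthetases outside that list, 1 rose at labelled day 1 (Rars) and 0 at labelled day 7. The count of 0 depended on the method, since Farsb was called higher in 8 and Rars in 4 of 21 alternative analyses at labelled day 7. The list was drawn up from general knowledge with earlier results known, so it is no independent evidence and gave no test. Of 8 reference genes of the ATF4 response, 7 rose at each labelled age, though not the same 7 (all genes: 9.81% and 0.686%). Asns (3.78 ± 0.28 and 3.45 ± 0.13) and Trib3 (3.30 ± 0.35 and 4.37 ± 0.25), a pseudokinase gene, rose at both, and Atf4 itself rose by 0.64 ± 0.13 and 0.81 ± 0.12. Slc7a11 was not called at labelled day 7 (0.35 ± 0.19, edgeR adjusted p = 0.42). Chac1 was not called at labelled day 1 (1.10 ± 0.36, adjusted p = 0.055). It gave 5.99 ± 0.32 at labelled day 7, where controls averaged 0.17 CPM. Its difference between the labelled ages was called (4.90 ± 0.59, adjusted p = 0.00018). Ddit3, which lies beside Mars1 and shares a small part of its exonic bases, rose by 0.72 ± 0.14 and 0.80 ± 0.12.

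Membership of the multisynthetase complex did not separate called from uncalled members. Of its 8 synthetases, 5 rose at labelled day 1 (Rars, Lars, Eprs, Iars and Mars1) and 4 at labelled day 7 (the same without Rars), while Dars, Qars and Kars were called at neither. Of its 3 scaffold genes, 0 were called at either labelled age. Aimp1 gave 0.10 ± 0.06 and 0.20 ± 0.06, Aimp2 gave 0.18 ± 0.07 and 0.16 ± 0.07, and Eef1e1 gave 0.23 ± 0.12 and 0.28 ± 0.13.

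Among genes that handle tRNA beside the synthetases, Xpot, the exporter of tRNA from the nucleus, rose in DKO hearts. It averaged 74.2 CPM in DKO and 53.7 CPM in controls at labelled day 1 (0.46 ± 0.09, edgeR adjusted p = 0.0018) and 105 CPM in DKO and 64.2 CPM in controls at labelled day 7 (0.70 ± 0.08, adjusted p = 8.9e-05). The other 4 tested genes of tRNA proofreading and export were not called. Of 3 tested genes that amidate or formylate mitochondrial aminoacyl-tRNA, 0 were called, and of 12 mitochondrial translation factors 0 were called at either labelled age. Of 16 genes of mitochondrial tRNA maturation, Trit1 rose (0.29 ± 0.09) and Cdk5rap1 fell (−0.54 ± 0.10) at labelled day 1, and 0 were called at labelled day 7. Of 6 cytosolic elongation factors, Eef2 rose at labelled day 1 (0.20 ± 0.06, adjusted p = 0.039). Over all genes tested, 9.81% rose and 7.79% fell at labelled day 1, and 0.686% rose and 0.334% fell at labelled day 7. The small counts of these lists therefore do not set them apart from genes at large.

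Synthetases of both sets also changed between the labelled ages, in both genotypes. In DKO hearts 11 cytosolic members were higher at labelled day 7 than at labelled day 1 and 0 lower, and 6 mitochondrial members were higher and 1 lower (27.3% of all genes higher, 25.3% lower). In control hearts the counts were 9 and 0 cytosolic and 8 and 1 mitochondrial (27.4% higher, 25.6% lower). The labelled age cannot be told apart from the series of libraries, which also differed in depth and in Y-linked transcripts.

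Yars2, the mitochondrial tyrosyl enzyme, differed most. In DKO libraries its lowest, median and highest levels were 19.4, 40.7 and 51.2 CPM at labelled day 7 and 4.99, 6.77 and 7.58 CPM at labelled day 1. In controls they were 15.4, 36.1 and 42.7 CPM at labelled day 7 and 4.66, 5.3 and 6.14 CPM at labelled day 1. The log2 fold changes of labelled day 7 over day 1 were 2.57 ± 0.22 in DKO and 2.66 ± 0.22 in controls, with no overlap in either genotype, while its cytosolic partner Yars gave 0.11 ± 0.10 and 0.03 ± 0.10.

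Tarsl2 gave 1.54 ± 0.13 in DKO and 1.65 ± 0.13 in controls for the same comparison, Iars2, the mitochondrial isoleucyl enzyme, 1.51 ± 0.10 and 1.62 ± 0.10, and Ears2, the mitochondrial glutamyl enzyme, 1.5 ± 0.12 and 1.60 ± 0.12. Vars gave 0.60 ± 0.09 and 0.77 ± 0.09, and Gars 0.54 ± 0.10 and 0.65 ± 0.10. Lars2 was the single member called lower at labelled day 7, with log2 fold changes of −0.45 ± 0.12 in DKO and −0.48 ± 0.12 in controls. Restricted to libraries with Y-linked transcripts, all of these kept their direction, and the call of Lars2 in DKO was lost.

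**Figure D4:**
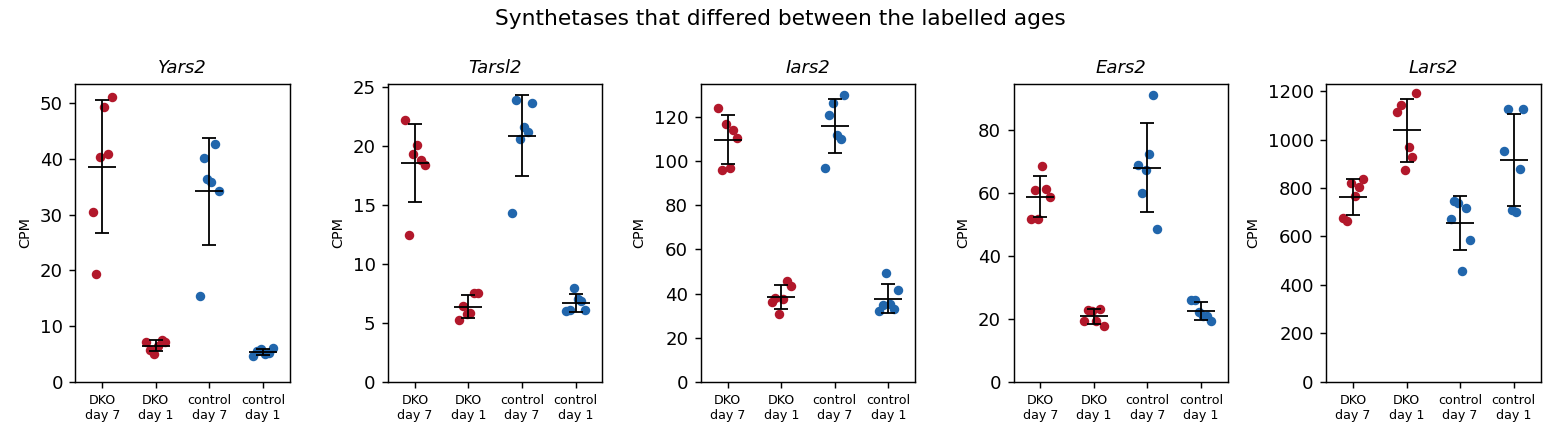
CPM in each library (points) with mean ± SD (black) of Yars2, Tarsl2, Iars2, Ears2 and Lars2, in DKO (red) and control (blue) libraries, labelled day 7 to the left of labelled day 1. The first 4 genes lie higher in every library labelled day 7 than in any labelled day 1, and Lars2 is lower on average at labelled day 7, with points that overlap in controls and not in DKO.

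Some members share exonic bases with neighbours, and the kit did not mark strand. In GENCODE M21, 57.1% of the exonic bases of Vars2 lay inside another gene, its introns included, 26.7% of Iars2, 22.8% of Fars2, 15.1% of Aars and 13.7% of Tarsl2. The share on exons of other genes was 8.5% for Vars2, 24.2% for Iars2, 10.7% for Fars2, 15.1% for Aars and 1.8% for Tarsl2. Hars and Hars2 overlap head to head. Reads from these partners cannot be told apart where they overlap. Iars has a processed pseudogene, Gm4849, with 96% identity over 1656 bases, which held 2259 counts in all 24 libraries together.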

How the data were processed

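The 24 libraries, 6 in each of 4 groups by genotype and labelled age, were made of polyadenylated RNA of mouse left ventricle from 100 ng of total RNA with a low-input kit that does not mark strand, per the labels' protocols. The deposited values are raw counts per gene as whole numbers, made by the authors. The tools named are bcl2fastq and STAR 2.4.2a, with the build GRCm39, per the submitters' processing notes. How reads were counted, and on which annotation, is not given in the sources used here.

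With a minimum count of 10, filterByExpr over all groups kept 17352 genes. After TMM scaling, edgeR 4.0.16 (R 4.3.3) tested the counts (robust quasi-likelihood F-test, Benjamini-Hochberg over all genes, threshold 0.05), within each labelled age over 12 libraries, and over all 24 libraries for the difference between labelled ages and for the labelled age. The SE was taken as |log2 fold change| over the square root of F. The tests were checked on simulated data. DESeq2 1.42.0 and limma-voom (limma 3.58.1) were alternatives, with another scaling, no filter, protein-coding rows only, a joint fit, each library left out, covariates and a length trend. Chi-square per degree of freedom between replicates was 5.42 or more, so no 2 libraries agreed within counting error, which does not show that they came from different animals. No pairing was used, since no library name is shared between groups.

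Exon overlaps and transcript lengths came from GENCODE M21 (GRCm38), shared stretches from blastn 2.17.0, and promoters from RefSeq. The values of 1 mitochondrial member, which is counted in the set, and 1 promoter stretch are not reported here. The members and gene lists were chosen with earlier results of these data known. Values per library are given for the 8 cytosolic and up to 4 mitochondrial called members with the largest genotype effect and for the partners of the first 3. The members named for labelled age, the 7 largest in both genotypes, were chosen after their values were seen.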

Additional observations from a re-analysis of the deposited data

Results flagged for a closer look

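Over 80 groups of 6 libraries (18 members and 2 sums in 4 groups), Dixon's criterion at 95% set 2 values apart, and chance alone sets about 1 in 20 groups apart. Both were in control m1022, labelled day 7. Its Yars2 level was 15.43 CPM, against 34.29 CPM for the nearest other control of that labelled age. Its Tarsl2 level was 14.34 CPM, against 20.58 CPM for the nearest other. Both still lay above every library labelled day 1. DKO m1046, though not set apart, was the lowest DKO library labelled day 7 for both genes, at 19.42 CPM of Yars2 and 12.41 CPM of Tarsl2. The cytosolic sum of control m1022, 1596.2 CPM, was within the range of the other controls.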

How the results depend on the processing

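In the genotype comparisons, 12 to 14 cytosolic members were called higher at labelled day 1 and 10 to 13 at labelled day 7 under every alternative run, 0 were called lower, and 0 mitochondrial members were called at labelled day 7; the lowest counts, 12 and 10, came from leaving Gars and Kars out of the set. The number of genes called moved more. At labelled day 1 it was 1789 with protein-coding rows only. At labelled day 7 it was 514 with DESeq2, 419 with all 24 libraries in 1 fit, 104 to 302 with 1 library left out (302 without DKO m1026, 104 without DKO m1124, 109 without DKO m1128) and 77 without both DKO m1124 and m1128, an alternative chosen after seeing the data. The difference between labelled ages was called for 114 genes with no filter, 364 with DESeq2 and 49 with protein-coding rows only. At labelled day 1, mitochondrial members called higher numbered 0 with no filter and with the Myl7 covariate, and 0 to 2 with 1 library left out. Mitochondrial members called lower numbered 1 with DESeq2 (Fars2), 1 with the Myl7 covariate (Iars2) and 0 to 1 with 1 library left out. In the labelled age comparison of controls, 1 cytosolic member was called lower with DESeq2 size factors, 1 with DESeq2 and 2 with protein-coding rows only; with Y-linked libraries only, 5 cytosolic and 5 mitochondrial members were called higher. In DKO, mitochondrial members called lower numbered 2 with DESeq2 size factors, 2 with DESeq2 and 2 with protein-coding rows only, where 7 cytosolic members were called higher. Among members whose genotype values are given by library, Cars2 and Nars2 turned sign, uncalled throughout. Cars2 at labelled day 1 was 0.0047 with the length trend removed and ran between −0.11 and 0.0067 with 1 library left out. Nars2 at labelled day 7 ran between −0.0013 and 0.0899 with 1 library left out and was −0.0335 without DKO m1124 and m1128. Causes of these shifts were not tested. Counts of a member went down to 158 in a library, and counting error limits the precision of such low levels. No paired analysis was possible because library names are not shared between groups.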

Other observations

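By the median over members, per kilobase of the longest coding transcript, the cytosolic synthetases were the more abundant set. The single most abundant member of either set was nonetheless mitochondrial, Lars2, at 266 CPM per kilobase in DKO and 235 in controls at labelled day 1. The cytosolic median at labelled day 1 was 25.7 CPM per kilobase in DKO and 18.9 CPM per kilobase in controls, against 9.43 CPM per kilobase in DKO and 9.87 CPM per kilobase in controls for the mitochondrial set. Libraries labelled day 7 gave 29.9 in DKO and 20.9 in controls for the cytosolic set and 11.8 in DKO and 12.2 in controls for the mitochondrial set, in the same unit. The most abundant cytosolic member was Gars in DKO hearts (84.4 CPM per kilobase at labelled day 1 and 123 at labelled day 7). In controls it was Kars at labelled day 1 (58 CPM per kilobase) and Gars at labelled day 7 (71.2). The least abundant cytosolic member was Tarsl2 in all 4 groups, at 1.99 CPM per kilobase in DKO and 2.09 in controls at labelled day 1, and 5.81 in DKO and 6.54 in controls at labelled day 7. Fars2, the mitochondrial phenylalanyl enzyme, at 52 CPM per kilobase in DKO and 56.5 in controls at labelled day 1, exceeded Farsa (24.5 in DKO and 23.1 in controls) and Farsb (31.8 in DKO and 28.3 in controls), the subunits of its cytosolic counterpart. These are descriptions of levels, and Fars2 shares exonic bases with a neighbouring gene.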
